A study of Danio rerio with 6 samples.

Results

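The annexins are a family of proteins that bind phospholipid membranes when calcium rises, through a conserved core of repeats, and they act in membrane organisation, vesicle traffic and the sealing of damaged membranes. Annexin A1 is known in mammals as an anti-inflammatory protein induced by glucocorticoids, annexin A2 pairs with the S100 protein S100A10 and binds plasminogen and its activator at the cell surface, and annexin A5 binds phosphatidylserine on dying cells. Zebrafish keep several copies of some of these genes, and annexin A1 alone has copies a, b, c and d. The members were 10 of the 24462 genes in the table. One was taken by its identifier, ENSDARG00000100095 (anxa1b), because it differed between the groups of these same libraries, so its values are given as a description with no test. The other 9 were taken by name, ignoring case: anxa1c, anxa2b, anxa3b, ANXA4, anxa5a, anxa5b and ANXA6 matched directly, while ANXA1 (ENSDARG00000026726) and ANXA2 (ENSDARG00000003216), which carry the capital stem with no copy letter, were counted for anxa1a and anxa2a. The capital stem was used only where the full name had no match, so ANXA3, the stem of anxa3b, was not counted as a member. ANXA3 and the annexins that the rule does not name (anxa1d, 2 genes with the symbol ANXA11, anxa13, anxa13l and anxa14), 7 in all, are given for comparison. All 17 passed the filter on low values.

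The data came from whole embryos of the Tropical 5D wild-type zebrafish line, held from 8 h after fertilization either in 0.5% methanol alone (0 µM, the control group) or in 47 µM FBSA with the same 0.5% methanol. FBSA is perfluorobutane sulfonamide, a sulfonamide with a short perfluorinated chain. The chorion was removed at 4 h, and RNA was taken at 48 h. Each group had 3 libraries of the 3′ end type, each from a pool of 10 embryos, and the labels do not say whether pools shared a clutch, so that a p-value here speaks only of the spread among these pools. The libraries held 23906021 to 33356411 reads in genes. The libraries numbered 2 were the lowest (control) and the highest (FBSA) of the 6 along the leading principal component, to which 34.3% of the variance belonged. Markers of periderm (krt4), ionocytes (foxi3a), leukocytes (lyz), muscle (actc1b), hatching gland (ctslb), endothelium (kdrl) and neurons (ELAVL3) were each detected in all 6 libraries, and the liver marker fabp10a ranged from 0 to 41.7 normalized counts. In whole embryos, fewer cells of a type and less RNA per cell cannot be told apart.

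The gene anxa1b, a copy of the annexin A1 gene, had the largest difference between the groups of the 10 members on the log2 scale. Its control libraries held 833, 1037 and 1141 normalized counts (reads divided by the size factor of the library), and its FBSA libraries 2657, 2213 and 2581. The lowest FBSA library was above the highest control, and the 3 FBSA libraries were close to each other. The control mean was 1004 ± 157 and the FBSA mean 2484 ± 238 (SD, n = 3 each), 2.49-fold apart, a log2 fold change of 1.31 ± 0.14 SE on the log2(normalized count + 1) scale. Of all 16890 genes tested, 0.568% were called higher with FBSA (limma, Benjamini-Hochberg adjusted p under 0.05), and anxa1b was chosen from among these 96, so nothing is read from its place there.

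Among the 9 members taken by name, 0 passed that threshold in either direction (limma), where 0.705% of all genes did. At an unadjusted p under 0.05 there were 4 of the 9, namely ANXA2, anxa5b, anxa1c and anxa5a, against 13.6% of all genes, and limma-voom, run as an alternative, also called 0, against 0.681% of all genes. In the same 4 genes the groups did not overlap, FBSA being higher in 2 and lower in 2. Of all genes, 19.9% were apart in this way, 10.0% with FBSA higher and 9.91% with FBSA lower. The median log2 fold change of the 9 was 0.25, beside −0.0009 over all genes tested.

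**Figure D1:**
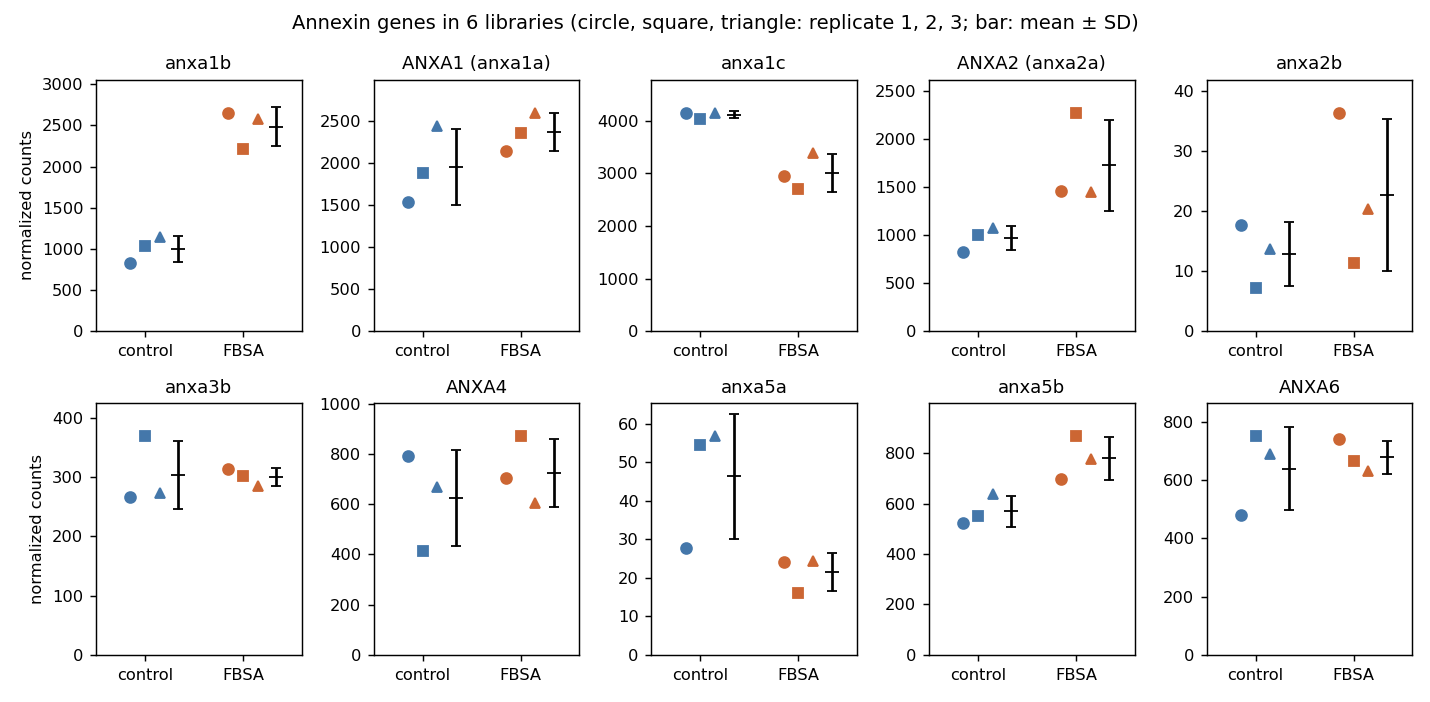
Normalized counts (vertical axis, from 0, with a scale of its own in each panel) of the 10 members in the 3 control and 3 FBSA libraries; points are libraries and bars give the mean ± SD of a group. The groups are apart in anxa1b, anxa1c, ANXA2, anxa5a and anxa5b and overlap in the other 5.

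The copy anxa1c lies next to anxa1b on chromosome 5 in the RefSeq gene table for the assembly GRCz12tu, with anxa1d on its other side and no coding gene listed between the 3. The build of the deposited data is GRCz11, so the order was taken only from that table. The gene anxa1c had 4152, 4032 and 4148 normalized counts in control and 2938, 2691 and 3390 with FBSA. The controls lay within a narrow range, with a coefficient of variation of 1.66%, and all FBSA libraries were below them. The log2 fold change was −0.46 (95% interval −0.69 to −0.22), which did not pass over all genes (limma adjusted p = 0.0925). The gene anxa1d, which the rule does not take, had 404, 410 and 426 normalized counts in control and 286, 337 and 342 with FBSA. All FBSA libraries were again below the controls, the log2 fold change was −0.37 (95% interval −0.70 to −0.03), and it did not pass (limma adjusted p = 0.321).

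Within this group of neighbours, then, the FBSA libraries lay above control in anxa1b and below control in anxa1c and anxa1d. The ratio of anxa1b to anxa1c normalized counts was 0.201, 0.257 and 0.275 in control and 0.904, 0.822 and 0.761 with FBSA. The groups did not overlap, with means of 0.244 ± 0.0390 and 0.829 ± 0.0717 (SD, n = 3 each). Since anxa1b was chosen for its own difference, no test was made of this ratio. The sum of both genes was 4985, 5068 and 5289 in control and 5595, 4904 and 5971 with FBSA, so it overlapped between the groups. How reads that match more than 1 annexin copy were counted was not given in the sources used here, and no sequences were compared, so the separate values of close copies are uncertain.

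**Figure D2:**
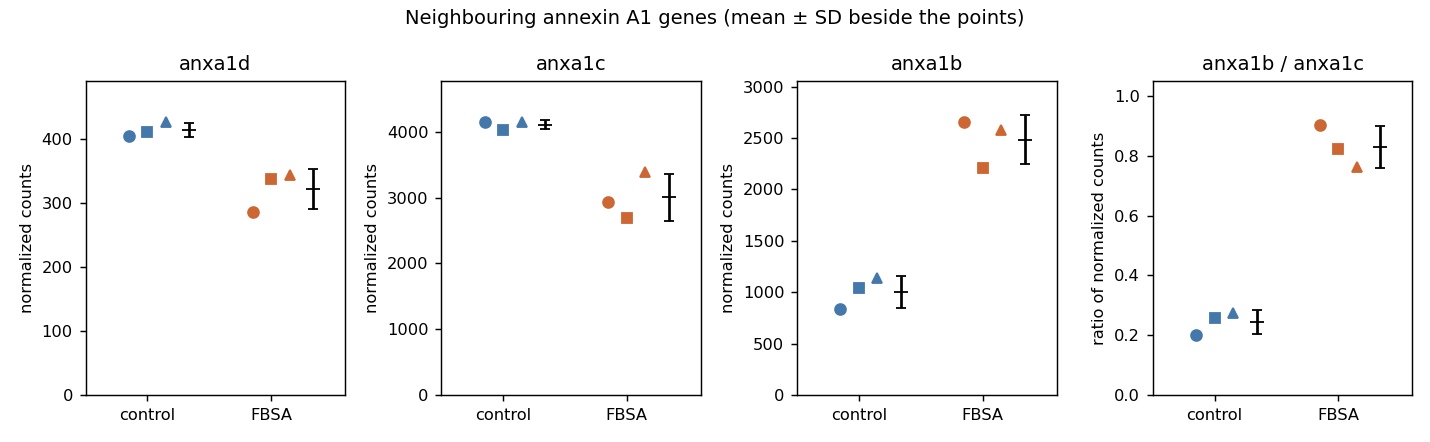
Normalized counts of the neighbouring genes anxa1d, anxa1c and anxa1b and the ratio of anxa1b to anxa1c (vertical axes, from 0) in the control and FBSA libraries; points are libraries and bars the mean ± SD. FBSA libraries lie below control for anxa1d and anxa1c and above it for anxa1b, and the ratio goes from 0.201 to 0.275 in control to 0.761 to 0.904 with FBSA.

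The remaining annexin A1 member, ANXA1 (counted for anxa1a), had 1537, 1879 and 2434 normalized counts in control and 2144, 2359 and 2596 with FBSA. The highest control was above 2 of the FBSA libraries, so the groups overlapped. Its log2 fold change was 0.30 (95% interval −0.03 to 0.63; limma adjusted p = 0.421), and it was 0.14 without control replicate 1 and 0.47 without control replicate 3.

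ANXA2, counted for anxa2a, had 826, 1000 and 1071 normalized counts in control and 1454, 2274 and 1448 with FBSA. All FBSA libraries were above all controls, and FBSA replicate 2 stood well above the other FBSA libraries. The log2 fold change was 0.81 ± 0.18 SE (95% interval 0.43 to 1.19, a 1.76-fold difference in the estimate), which did not pass over all genes (limma adjusted p = 0.0632). Without FBSA replicate 2 it was 0.60 (limma adjusted p = 0.18). Its copy anxa2b had few reads, 6 to 42 per library, with 17.6, 7.12 and 13.6 normalized counts in control and 36.4, 11.3 and 20.3 with FBSA. The groups overlapped, and the 95% interval of the log2 fold change ran from −0.62 to 2.05, so that a difference was neither shown nor excluded. The log2 fold change of 0.71 was 0.31 without FBSA replicate 1, 1.12 without FBSA replicate 2 and 0.37 without control replicate 2.

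The S100 genes that encode the partner of annexin A2 in mammals were read beside it, and these and the other partner genes described next were picked for their roles or their values with the results known. The gene s100a10b had 2812, 1480 and 2578 normalized counts in control and 3515, 5154 and 3683 with FBSA. The groups did not overlap, the lowest library being control replicate 2 and the highest FBSA replicate 2. The log2 fold change was 0.88 (95% interval 0.41 to 1.34; limma adjusted p = 0.0982), and it was 0.42 without both libraries numbered 2. The copy s100a10a had 253, 384 and 194 normalized counts in control and 190, 134 and 215 with FBSA, so the groups overlapped (log2 fold change −0.59, limma adjusted p = 0.35). Leaving out control replicate 2 gave −0.33, leaving out FBSA replicate 2 gave −0.40, and leaving out both gave −0.13. Among all 14 S100 genes tested, the ictacalcin genes included, 0 passed in either direction (limma, and 0 by limma-voom), with 9 positive log2 fold changes and a median of 0.34. At an unadjusted p under 0.05 there were 6 of the 14, 4 higher and 2 lower, where 13.6% of all genes were. The groups were apart in 6 of the 14, 5 with FBSA higher and 1 lower, beside 19.9% of all genes. The ictacalcin gene icn, an S100 gene of the fish skin, had 36836, 21397 and 37238 normalized counts in control and 49349, 45669 and 50150 with FBSA (limma adjusted p = 0.135). It passed only when both libraries numbered 2 were left out (log2 fold change 0.43, limma adjusted p = 0.0151).

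Of 12 genes tested for partners of annexins A2 and A1, 0 passed (limma; 4 at an unadjusted p under 0.05, beside 13.6% of all genes, and 0 by limma-voom), and the median log2 fold change was 0.28. The groups were apart in 5 of the 12, all with FBSA higher, beside 10.0% of all genes. The formyl peptide receptor gene fpr1, whose mammalian relatives bind annexin A1, was near the filter with control at 15.5 ± 7.90 and FBSA at 17.6 ± 2.39 normalized counts (SD, n = 3 each), and its groups overlapped. The plasminogen activator gene PLAT did not pass the filter. Of 30 genes for membrane repair, among them ferlins, calpains and caveolins, 0 passed (limma; 5 at an unadjusted p under 0.05, a share near the 13.6% of all genes, and 0 by limma-voom), with a median log2 fold change of 0.10. In 9 of the 30 the groups were apart, 6 with FBSA higher and 3 lower, beside 19.9% of all genes. Their summed level was 27869 to 28102 normalized counts in control and 29563 to 30021 with FBSA, with no overlap. Of 8 copines, another family of calcium-dependent membrane-binding proteins, 0 passed (limma; 1 at an unadjusted p under 0.05, also near 13.6%, and 0 by limma-voom), with a median of −0.24.

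**Figure D3:**
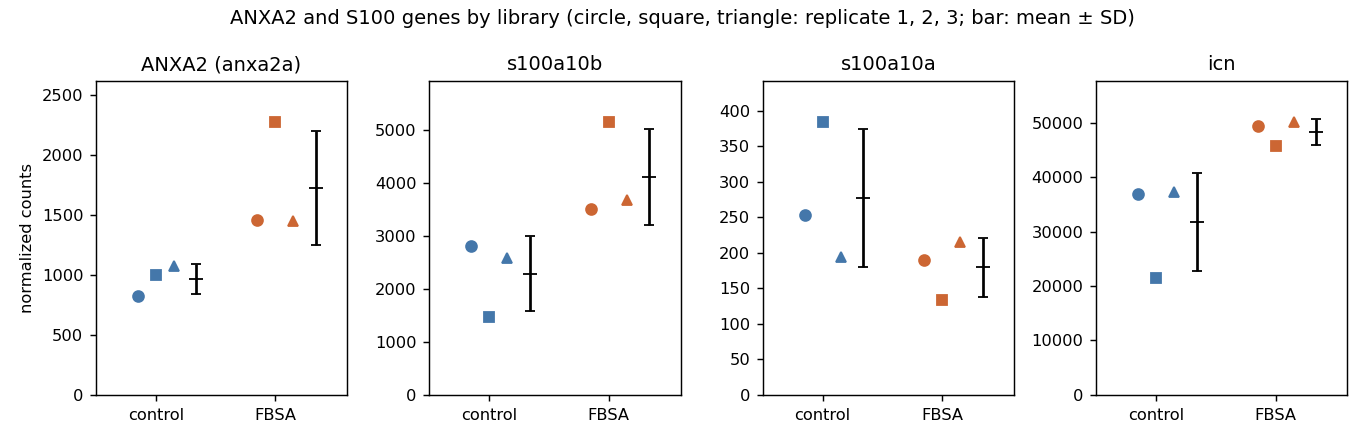
Normalized counts (vertical axis, from 0, with a scale of its own in each panel) of ANXA2, s100a10b, s100a10a and icn in the control and FBSA libraries; points are libraries and bars the mean ± SD. FBSA replicate 2 (square) is the highest library for ANXA2 and s100a10b and the lowest for s100a10a.

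The annexin A5 copies lay on opposite sides of control. The gene anxa5b had 522, 549 and 638 normalized counts in control and 697, 867 and 775 with FBSA. All FBSA libraries were above the controls, with a log2 fold change of 0.45 (95% interval 0.14 to 0.76; limma adjusted p = 0.193). The gene anxa5a, with 17 to 50 reads per library, had 27.7, 54.6 and 56.8 normalized counts in control and 24.2, 16.0 and 24.4 with FBSA. Control replicate 1 was close to the FBSA libraries although the groups did not overlap, and the log2 fold change of −1.03 had a 95% interval of −1.98 to −0.08 (limma adjusted p = 0.328). Neither copy passed, and the difference between them was not tested.

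In the other members the groups overlapped. ANXA4, whose mammalian protein is found in secretory epithelia, had 792, 415 and 667 normalized counts in control and 702, 870 and 603 with FBSA, with the lowest and the highest value in the libraries numbered 2. Its log2 fold change was 0.25 (limma adjusted p = 0.651) and was −0.16 without those libraries. ANXA6, whose protein has a doubled repeat core, had 480, 751 and 689 normalized counts in control and 740, 665 and 630 with FBSA. The FBSA libraries lay within the range of the controls, and the 95% interval of the log2 fold change was −0.27 to 0.48. The gene anxa3b had 267, 369 and 274 normalized counts in control and 314, 302 and 285 with FBSA, with a log2 fold change of 0.002 (95% interval −0.39 to 0.39), which was −0.03 with scaling by total reads and −0.02 with scaling by the upper quartile.

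Of the 7 other annexins 0 passed with limma and 0 with limma-voom, where 0.705% and 0.681% of all genes did. With so few genes, 0 calls say little. At an unadjusted p under 0.05 (limma) there was anxa1d alone, beside 13.6% of all genes. The median log2 fold change of the 7 was 0.03. The ANXA11 genes, whose mammalian protein is found in RNA granules, had log2 fold changes of 0.16 (ENSDARG00000002632) and −0.12 (ENSDARG00000077383). ANXA3 had 0.03, anxa13, of the annexin A13 type found in the mammalian gut, 0.21, and anxa13l 0.07, while anxa14, with 12 to 40 reads per library, had −0.52 with an interval of −1.67 to 0.62. The log2 fold change of anxa14 was −0.12 without FBSA replicate 2, −0.23 without control replicate 3, −0.89 without control replicate 1 and −0.05 without both libraries numbered 2. The limma adjusted p-values of these 6 genes ran from 0.553 to 0.948, and their groups overlapped.

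**Figure D4:**
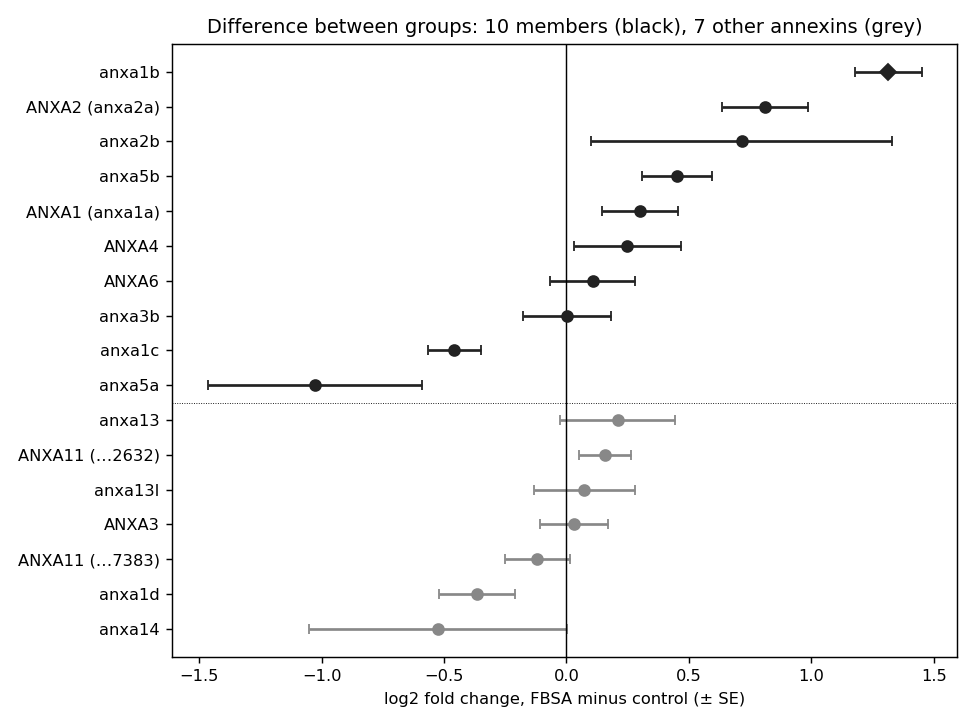
Log2 fold change, FBSA minus control, on the log2(normalized count + 1) scale (horizontal axis; points with bars of 1 SE) for the 10 members in black and the 7 other annexins in grey. The diamond marks anxa1b at 1.31, which was chosen for this difference, and the other genes lie between −1.03 for anxa5a and 0.81 for ANXA2, none past the threshold.

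Replicate spread differed between members and limits what could be seen. In control the coefficient of variation ran from 1.66% for anxa1c to 41.4% for anxa2b, and with FBSA from 4.98% for anxa3b to 56.1% for anxa2b. Between members, likeness was taken as the root mean square difference of the log2 values over the 6 libraries, each gene centred on its own mean, so that 0 is the same profile. The closest pair was anxa3b and ANXA6 at 0.154, followed by ANXA1 and anxa5b at 0.158. The groups overlapped in both genes of the first pair, and in the second pair they overlapped in ANXA1 and were apart in anxa5b.

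The same measure gave the genes whose profiles were nearest to anxa1b among 13257 candidates. They were SLC4A2, of the bicarbonate exchanger family, at 0.111, the natriuretic peptide genes nppa and nppal at 0.124 and 0.170, ABAT, which encodes GABA transaminase, at 0.181, and cishb, of the cytokine signalling inhibitor family, at 0.223. SLC4A2 had 207, 237 and 229 normalized counts in control and 571, 516 and 644 with FBSA, and nppa had 515, 556 and 618 against 1247, 1234 and 1295. In all 5 the FBSA libraries were above the controls, which follows from the choice of genes like anxa1b.

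Cell type markers were set beside the annexins, since annexins are made in epithelia and in other tissues. Over all genes tested 0.568% rose and 0.136% fell by the same call. Of 23 periderm and epidermis markers tested, 2 rose and 0 fell (limma), with a median log2 fold change of 0.27. At an unadjusted p under 0.05 (limma) there were 12, all with higher values, where 1240 of all 16890 genes were higher and 13.6% were past it in either direction. In 13 the FBSA libraries were all above the controls, beside 10.0% of all genes. The claudin gene cldne rose 2.16-fold (limma adjusted p = 0.0105). The keratin gene krt92 rose 1.82-fold (limma adjusted p = 0.0493) and was not called under 10 of 17 alternatives. FBSA replicate 2 was the highest library for both, with 2557, 3783 and 2159 normalized counts with FBSA for cldne and 2292, 3239 and 1801 for krt92. The summed level of the whole list was 555531 to 640104 normalized counts in control and 529828 to 659886 with FBSA, so it overlapped, but krt4 alone made up 280529 to 347465 of it per library, and krt4 had a log2 fold change of −0.06. No marker was at 0 in all libraries. Hatching gland markers were higher in sum, at 36814 to 39217 against 55673 to 58912, and 2 of 5 rose, the hatching enzyme genes he1.1 by 1.52-fold and he1.2 by 1.85-fold (limma adjusted p = 0.00921 and 0.0238), with 3 at an unadjusted p under 0.05. Most of this sum came from he1.1, he1.2 and XBP1, with control means of 17824, 9975 and 10081. In ctslb and klf17, which were low, the groups overlapped. Of 19 fast muscle genes 3 fell and 0 rose. They were the skeletal actin ACTA1 identifiers ENSDARG00000036371 (log2 fold change −0.68) and ENSDARG00000055618 (−0.82) and the troponin TNNI2 identifier ENSDARG00000029995 (−0.90). Other tested TNNI2 identifiers were not called, at −2.38 (ENSDARG00000005841, near the filter), −0.09 (ENSDARG00000029069) and 0.75 (ENSDARG00000035958). Of the 19, 8 were at an unadjusted p under 0.05 (limma), of which 7 were lower, where 1055 of all 16890 genes were lower. In 8 the FBSA libraries were all below the controls, beside 9.91% of all genes. The median log2 fold change of the fast muscle list was −0.09. Its summed level was 1.66e+06 to 1.79e+06 normalized counts in control and 1.52e+06 to 1.71e+06 with FBSA, so it overlapped. Of 15 neuronal genes ELAVL4, which encodes an RNA-binding protein, fell (−0.61) and 0 rose, and the median log2 fold change was −0.35. At an unadjusted p under 0.05 (limma) there were 11, of which 10 were lower, where 1055 of all 16890 genes were lower. In 9 the FBSA libraries were all below the controls, beside 9.91% of all genes. The summed level of the neuronal list was 64213 to 68138 normalized counts in control and 49537 to 57798 with FBSA, with no overlap. FBSA replicate 2 was the lowest library, both in this sum and for ELAVL4 (12415). ELAVL4 was the largest gene of the list, with means of 23039 in control and 15168 with FBSA. ELAVL3, the next largest, had means of 12408 and 12510. None of 14 leukocyte, 9 ionocyte, 9 liver and gut or 8 endothelial genes passed with limma or limma-voom. At an unadjusted p under 0.05 (limma) there were 4 leukocyte genes (3 higher, 1 lower) and 3 ionocyte genes (2 higher, 1 lower). The higher leukocyte genes were MMP9, mmp13a and nccrp1, and the lower was lyz. Of the 14 leukocyte log2 fold changes 8 were positive and 6 negative. Among the negative were MPEG1 (ENSDARG00000055290, −0.47), CORO1A (−0.30), spi1a (−0.44) and SPI1 (−0.28). Liver and gut had 1 and endothelium 0, beside 13.6% of all genes. Median log2 fold changes were 0.71 for ionocytes, 0.24 for leukocytes, 0.12 for liver and gut and 0.07 for endothelium. In 5 ionocyte genes the groups were apart, 3 with FBSA higher and 2 lower, beside 19.9% of all genes. The ionocyte sum overlapped, at 2050 to 2275 in control and 1930 to 2132 with FBSA. Most of it came from 2 ATP6V1A identifiers, whose FBSA libraries were all below the controls. Their means were 1183 and 521 in control and 962 and 369 with FBSA. The other 7 tested ionocyte genes had positive log2 fold changes, so this sum does not speak for them. The summed level of the leukocyte list was 4650 to 5756 in control and 4683 to 4943 with FBSA. The gene lyz alone made up 2442 to 4570 of it per library and had a log2 fold change of −0.36. The liver and gut sum was 182684 to 206840 in control and 219138 to 241854 with FBSA, with no overlap. Most of it came from apoa2, apoa1a and apoa1b. In 3 of the 9 liver and gut genes the FBSA libraries were all above the controls, beside 10.0% of all genes. The endothelial sum overlapped, at 1250 to 1363 in control and 1289 to 1400 with FBSA. The part of these markers in the annexin values was not tested.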

How the data were processed

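Gene expression was measured in 6 libraries, 3 control and 3 FBSA, grouped by the treatment in the labels. Libraries were made with the Lexogen QuantSeq 3′ FWD kit, per the labels' protocols. STAR, HTSeq, DESeq2 and the build GRCz11 are named in the submitters' processing notes, with no version, annotation or filter stated in the sources used here. The authors deposited log2 values for 24462 Ensembl genes, although the table is named as normalized counts. Its header names no gene column, so every library name sits above the neighbouring column and was moved by 1 cell. Read without the shift, control replicate 3 would carry an FBSA name.

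All columns share a floor of 6.52, and undoing the variance-stabilising form gave whole reads divided by 1 size factor per library: 100.0% of those that exceeded the floor were whole to within 0.1 read. Both this step and the test were run on simulated data, with Poisson reads for the step and the same dispersion for all genes for the test. The simulated data do not hold the spread of these libraries, so they do not show how the test behaves here. The 16890 genes that reached 10 normalized counts in 3 libraries or more were tested as log2(normalized count + 1) with limma 3.58.1 in R 4.3.3 (group as the only term, trend moderation, two-sided, Benjamini-Hochberg adjustment over all of them, threshold 0.05). Fold changes on this scale understate the change of low genes, and intervals at the 95% level come from the same fit. The reads carry no molecular identifiers and so may repeat a molecule. Normalized counts were not divided by length. Levels of different genes were set together only in the ratio and sum of anxa1b and anxa1c, and in the summed lists and the parts of single genes in them. Python 3.11.15 with pandas 2.3.3 was used for tables.

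A gene-name table gave symbols for 22817 identifiers. The members and the 12 lists were chosen with earlier results of these data known. The text names all annexins, list genes past the threshold, the first tested marker of each cell type list and the 5 genes nearest in profile to anxa1b (mean of at least 20 normalized counts, placeholder symbols left out). Other genes named were chosen after their values were seen. Protein and promoter sequences were not used here. Alternatives covered the pseudocount, filter, scaling, deposited log2 values, limma-voom, robust moderation, the replicate number as a block, and libraries left out.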

Additional observations from a re-analysis of the deposited data

How the results depend on the processing

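The gene anxa1b was chosen for its difference, so its calls under the alternatives are not counted here. None of the 9 members taken by name passed the threshold in any of the 17 alternatives run. The 7 other annexins and the partner lists had 0 genes past it in 16 of them and 1, icn, without both libraries numbered 2. The number of all genes past the threshold, 119, was 47 with the replicate number as a block, and ran from 53 to 102 with 1 library left out. Leaving out control replicate 3 gave 53, FBSA replicate 1 gave 57 and FBSA replicate 2 gave 58. Same-numbered libraries had correlations of their deviations of 0.021, −0.141 and −0.005, so the numbers were not taken as pairs. Over the 17 alternatives the limma adjusted p ran from 0.0519 to 0.18 for ANXA2 and from 0.0618 to 0.325 for anxa1c, the former 0.102 and the latter 0.202 with the replicate block. Some differences near 0 changed sign. For anxa3b the log2 fold change was −0.0288 with scaling by total reads, −0.0208 with scaling by the upper quartile, −0.0014 with the deposited values, and −0.0822 to 0.15 with 1 library left out. For ANXA3 it was −0.0019 with scaling by total reads, −0.0503 without both libraries numbered 2, and −0.0511 to 0.14 with 1 left out. Without both libraries numbered 2 it was −0.16 for ANXA4, −0.10 for anxa13l and −0.25 for anxa13. With 1 library left out it ran from −0.0193 to 0.45 for ANXA4, −0.0881 to 0.23 for ANXA6, −0.16 to 0.23 for anxa13l and −0.022 to 0.35 for anxa13. The cause of these changes was not tested. The stricter filter removed anxa2b, anxa5a and anxa14, whose low read numbers limit what could be seen in them. The calls of ELAVL4 and he1.2 were each lost under 6 alternatives, TNNI2 (ENSDARG00000029995) under 3, ACTA1 under 1 (ENSDARG00000036371) and 2 (ENSDARG00000055618), and he1.1 under 1.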
